A study of Mus musculus with 54 samples.

Results

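The genes described here are 10 endothelial genes of brain vessels, Cldn5, Pecam1, Flt1, Tek, Slc2a1, Slco1c1, Mfsd2a, Abcb1a, Ly6c1 and Sox17, chosen by name out of 47069 genes in a count table of mouse brain RNA. Each matched 1 Ensembl identifier of the table through the GRCm38 annotation, and all 10 passed the filter on low counts in every comparison. The libraries came from the cerebellum, cortex and striatum of 18 C57BL/6 mice aged 8 weeks, 10 of them Mbd5+/GT and 8 wild type (WT), which gave 54 polyA libraries with 1 library per mouse and region. Mbd5+/GT mice carry a gene trap in intron 2 of 1 copy of Mbd5, a gene of the methyl-CpG-binding domain family, and the trap lowers the transcript rather than removing it in a chosen cell type, so that the allele was present in all cells. Of the 3 litters, the first was all female with 3 Mbd5+/GT and 3 WT pups, the second all male with 4 Mbd5+/GT pups against a single WT pup, and the third mixed in sex with 3 Mbd5+/GT and 4 WT pups. In all, 5 of 10 Mbd5+/GT mice and 5 of 8 WT mice were female.

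Brain endothelial cells line the capillaries of the brain and form the blood-brain barrier. They are sealed to each other by tight junctions, carry few transport vesicles, move glucose and other nutrients with dedicated carriers and pump many drugs back into the blood. Neighbouring neurons, astrocytes and pericytes induce these properties, with Wnt and norrin ligands acting through beta-catenin as a main signal, while VEGF and angiopoietin receptors govern growth and quiescence of the vessel wall. Among the 10 genes, Cldn5 is the main claudin of the barrier's tight junctions, and Pecam1 is an adhesion molecule at endothelial contacts. Flt1 is a VEGF receptor that also acts as a decoy, and Tek is the angiopoietin receptor Tie2. Slc2a1 is the glucose carrier GLUT1, Slco1c1 carries thyroid hormone, Mfsd2a carries lipids with docosahexaenoic acid and restrains transcytosis, and Abcb1a is the efflux pump P-glycoprotein. Ly6c1 encodes a surface protein used as a marker of endothelium, and Sox17 is a transcription factor of arterial and barrier endothelium.

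Libraries held 25295973 to 49027399 gene counts (median 29073900). Levels are given in CPM, a gene's count divided by the library's total gene count in megareads, after trimmed-mean scaling of the totals over all libraries. Mbd5, the check of the genotype labels, was lower in Mbd5+/GT mice in each region (log2 fold change ± SE: cerebellum −0.34 ± 0.048, cortex −0.49 ± 0.048, striatum −0.51 ± 0.048), although its genotype groups overlapped in each. Cdh5, the VE-cadherin gene that defines endothelium and is not among the 10 genes, was measured in every library at 5.98 to 17.0 CPM. Neuronal markers placed 8 libraries against their region label. The cerebellum library of mouse M755 held 1.76 CPM of Gabra6, a granule cell gene that was at 225.3 CPM or more in the other cerebellum libraries. The striatum libraries of mice M754, M756 and M761 held more of the cortical gene Tbr1 than of the striatal gene Drd1, and the cortex libraries of mice M752, M761, M765 and M766 held more Drd1 than Tbr1. Both markers were also present in the other libraries of these regions. Tbr1 had a median of 58.4 CPM in striatum (1.31 to 124.1) and 108.7 CPM in cortex. Drd1 had a median of 41.3 CPM in cortex (9.05 to 121.8) and 149.9 CPM in striatum. Summed Hox genes, which mark caudal tissue, reached 64.7 to 582.6 CPM in the cerebellum libraries of mice M754, M755, M756 and M761 and at most 5.20 CPM in the others. Ttr, an abundant gene of the choroid plexus, exceeded 500 CPM in 7 cerebellum, 4 cortex and 4 striatum libraries. Calls of the edgeR fit between regions that changed without one of these sets of libraries are given beside the results, and the calls relative to Cdh5 by their counts. In bulk tissue, fewer endothelial cells and less RNA per cell cannot be told apart.

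Compared per kilobase of exon, the 10 genes kept nearly the same order in the 3 regions. Slc2a1 was the most abundant, at 28.7 ± 6.28 CPM per kb in cerebellum, 30.0 ± 7.17 in cortex and 36.9 ± 6.35 in striatum (mean ± SD, n = 18 mice), and Sox17 the least, at 1.06 ± 0.108, 1.44 ± 0.285 and 1.25 ± 0.255 CPM per kb. Ly6c1, at 20.6 ± 3.19, 20.9 ± 3.16 and 24.8 ± 4.57 CPM per kb, and Cldn5, at 16.6 ± 6.29, 16.8 ± 4.92 and 25.8 ± 7.62 CPM per kb, followed Slc2a1 and exchanged places in striatum, where Cldn5 was above Ly6c1 in 12 of 18 mice. Slco1c1 was at 8.83 ± 2.26, 16.4 ± 2.22 and 14.6 ± 2.23 CPM per kb, and Mfsd2a at 7.33 ± 3.60, 10.5 ± 1.70 and 12.9 ± 1.97 CPM per kb. Abcb1a, Flt1, Pecam1 and Tek then followed in this order in each region, from 6.98 down to 2.72 CPM per kb. Most neighbours in the order were not apart by their SD across mice, a measure that ignores that both genes come from the same library. Within mice Abcb1a was above Flt1 in 18 of 18 in each region, whereas Pecam1 was above Tek in 10 of 18 in cortex. The intervals of 1 SD around neighbouring means were apart between Tek and Sox17 in all 3 regions, between Mfsd2a and Abcb1a in cortex and striatum, between Slco1c1 and Mfsd2a in cortex, and between Ly6c1 and Slco1c1 and between Pecam1 and Tek in striatum, and nowhere else. Lengths are those of the merged exons of a gene, so a gene with long rare exons stands lower on this scale.

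**Figure D1:**
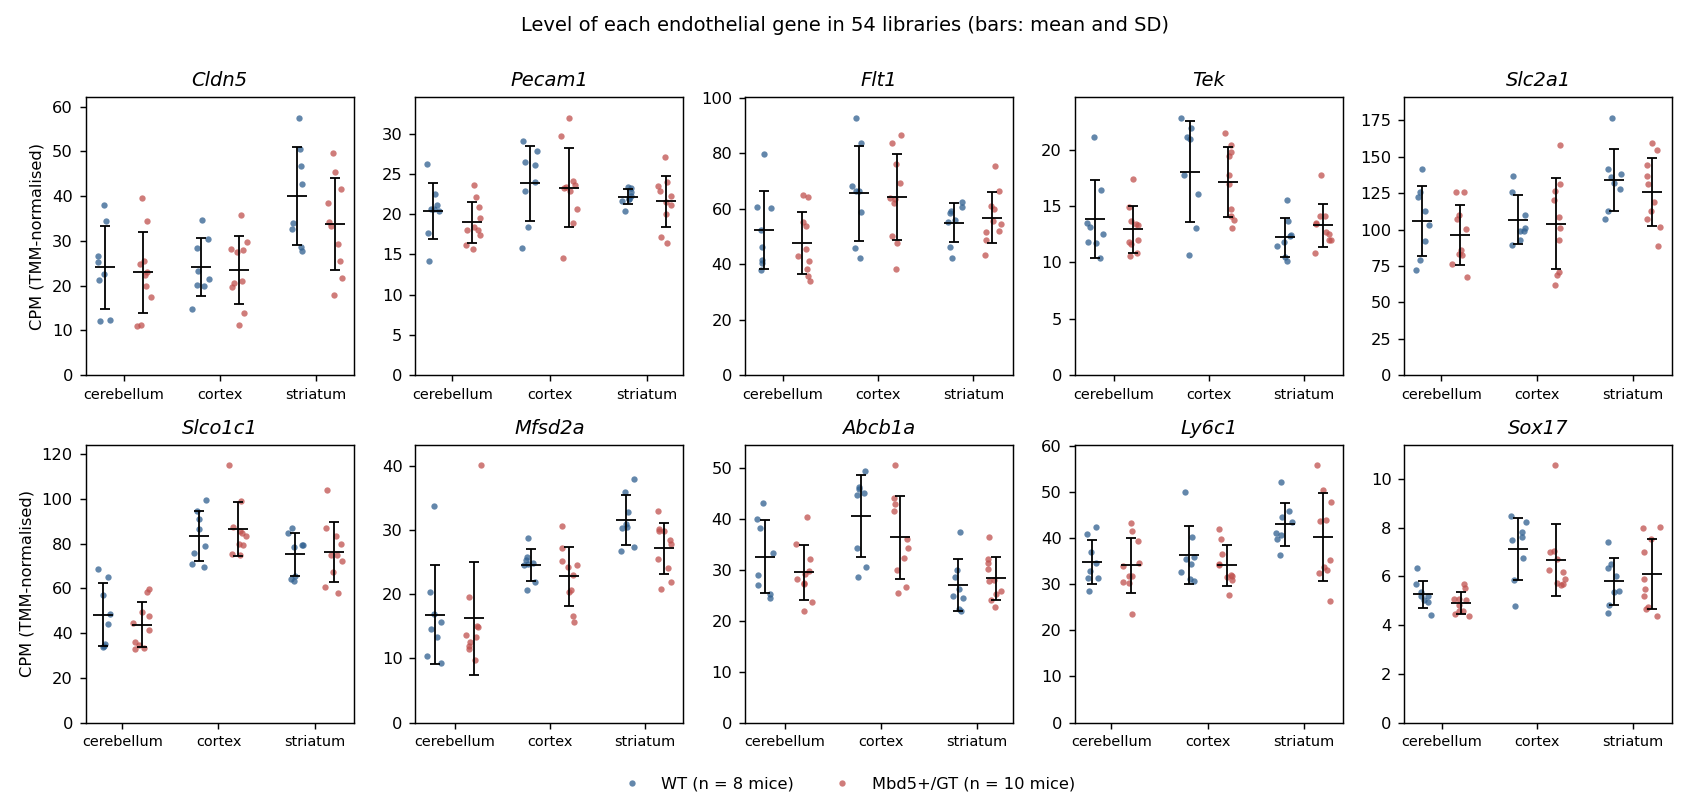
Level of each of the 10 endothelial genes in CPM (vertical axes, starting at 0) in the 3 regions (horizontal axes), with 1 point per mouse, blue for 8 WT and red for 10 Mbd5+/GT mice, and bars for the mean and SD. The genotypes overlap in every panel, and Slco1c1 is lower in cerebellum (32.7 to 68.7 CPM) than in cortex (69.3 to 115.1 CPM) in every mouse.

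The first comparison asked whether endothelial genes differed between the brain regions. In cortex, 7 of the 10 genes were higher than in cerebellum and none was lower (edgeR quasi-likelihood test, adjusted p under 0.05), while 33.3% of the 20477 genes tested were higher and 35.5% lower. The median log2 difference was 0.34 over the 10 genes and −0.022 over all genes tested. Slco1c1, the thyroid hormone carrier, differed most, with a lowest, median and highest level of 32.7, 44.3 and 68.7 CPM in cerebellum and 69.3, 84.1 and 115.1 CPM in cortex. The groups of 18 libraries did not overlap, as was the case for 11.9% of the genes tested, and the log2 difference was 0.89 ± 0.090 (SE, adjusted p = 1.46e-12). Mfsd2a, the lipid carrier, ranged from 9.34 over a median of 14.1 to 40.1 CPM in cerebellum and from 15.7 over 24.6 to 30.7 CPM in cortex. It was higher in cortex in 15 of 18 mice and by 0.52 ± 0.131 (adjusted p = 0.000466), with overlapping groups. Sox17 was higher in cortex in 18 of 18 mice, although its ranges of 4.36 to 6.34 and 4.77 to 10.6 CPM overlapped, and differed by 0.44 ± 0.086 (adjusted p = 1.25e-05). Both growth factor receptors were higher in cortex. Tek rose by 0.39 ± 0.090 (adjusted p = 0.000137, 16 of 18 mice) and Flt1 by 0.38 ± 0.106 (adjusted p = 0.00147, 14 of 18 mice). The pump gene Abcb1a was higher by 0.31 ± 0.092 (16 of 18 mice) and the adhesion gene Pecam1 by 0.26 ± 0.080 (15 of 18 mice). Cldn5 at 0.022 (95% CI −0.30 to 0.35), Ly6c1 at 0.029 (−0.13 to 0.19) and Slc2a1 at 0.060 (−0.15 to 0.27) did not pass the test. In the 8 WT mice alone 4 of the 10 genes passed, with Flt1, Pecam1 and Abcb1a at adjusted p of 0.0762, 0.0954 and 0.0510. Mfsd2a reached 0.83 ± 0.095 without the 4 cerebellum libraries with Hox counts and 0.39 (adjusted p = 0.0524) without litter 2.

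In striatum, 6 of the 10 genes were higher than in cerebellum and none was lower, while 37.3% of genes tested were higher and 38% lower. Mfsd2a differed most, by 0.83 ± 0.132 (adjusted p = 1.94e-07), with a lowest, median and highest level of 20.8, 29.9 and 38.0 CPM in striatum, and it was higher there in 16 of 18 mice. Slco1c1 followed at 0.72 ± 0.090 (adjusted p = 5.40e-10, 17 of 18 mice), with striatal levels of 57.9, 76.7 and 104.1 CPM. Its groups overlapped, and no member was among the 9.08% of genes tested whose groups did not. Cldn5, the claudin, ranged from 10.9 over a median of 22.9 to 39.6 CPM in cerebellum and from 17.9 over 34.0 to 57.6 CPM in striatum. It was higher in striatum in 16 of 18 mice, by 0.65 ± 0.163 (adjusted p = 0.000396). Slc2a1 was higher by 0.36 ± 0.103 (15 of 18 mice), Ly6c1 by 0.27 ± 0.080 (14 of 18) and Sox17 by 0.22 ± 0.086 (14 of 18). Flt1 at 0.16 (95% CI −0.049 to 0.37), Pecam1 at 0.15 (−0.0061 to 0.31), Tek at −0.072 (−0.25 to 0.11) and Abcb1a at −0.16 (−0.35 to 0.023) did not pass. Sox17 lost the call without the libraries with high Ttr (adjusted p = 0.0563) and in WT mice alone (adjusted p = 0.211), and Flt1 gained it without the Hox libraries (0.26, adjusted p = 0.0288). Pecam1 gained it without the Hox libraries (0.20, adjusted p = 0.0245), without the 8 libraries against their region label (0.19, adjusted p = 0.0476), with DESeq2 and under both other scalings. Upper quartile scaling moved the median of all genes by 0.11 in this comparison, under which Tek was at 0.030 and Flt1 at 0.26 (adjusted p = 0.0249).

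Between striatum and cortex the 10 genes did not move one way. In striatum 4 were higher and 3 lower, against 28.9% and 30.1% of genes tested. Cldn5, Mfsd2a, Slc2a1 and Ly6c1 were on the higher side. Cldn5 was higher in striatum by 0.62 ± 0.163 (adjusted p = 0.000989, 15 of 18 mice), against cortical levels of 11.2, 22.3 and 35.8 CPM (lowest, median and highest). Mfsd2a was higher by 0.31 ± 0.131, Slc2a1 by 0.30 ± 0.103 and Ly6c1 by 0.24 ± 0.080, in 16, 12 and 14 of 18 mice. On the lower side were the pump Abcb1a at −0.47 ± 0.093 (adjusted p = 2.38e-05) and the receptor Tek at −0.47 ± 0.090 (adjusted p = 2.25e-05), each lower in all but 2 of 18 mice, and Sox17 at −0.22 ± 0.086. Abcb1a ranged from 25.5 over a median of 38.8 to 50.5 CPM in cortex and from 21.8 over 27.0 to 37.4 CPM in striatum, and Tek from 10.6 over 17.8 to 22.8 CPM and from 10.1 over 12.4 to 17.7 CPM. All 10 genes overlapped between these regions, whose libraries held markers of both, whereas 0.327% of genes tested did not. Flt1 at −0.21 (adjusted p = 0.0761), Slco1c1 at −0.17 (adjusted p = 0.108) and Pecam1 at −0.11 (adjusted p = 0.258) did not pass. Only 4 of the 10 genes passed without litter 2, where Slc2a1, Ly6c1 and Mfsd2a lost the call, and 4 passed without the libraries with high Ttr, where Slc2a1, Mfsd2a and Sox17 lost it. Sox17 also lost it in WT mice alone (−0.27, adjusted p = 0.0690), without the Hox libraries (−0.19, adjusted p = 0.0566), with no filter (−0.18, adjusted p = 0.115) and with upper quartile scaling (−0.15, adjusted p = 0.137). Mfsd2a lost it in WT mice alone (0.39, adjusted p = 0.0698). Without the 8 libraries against their region label Ly6c1 lost the call (0.20, adjusted p = 0.0665) and Flt1 gained it (−0.28, adjusted p = 0.0395).

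**Figure D2:**
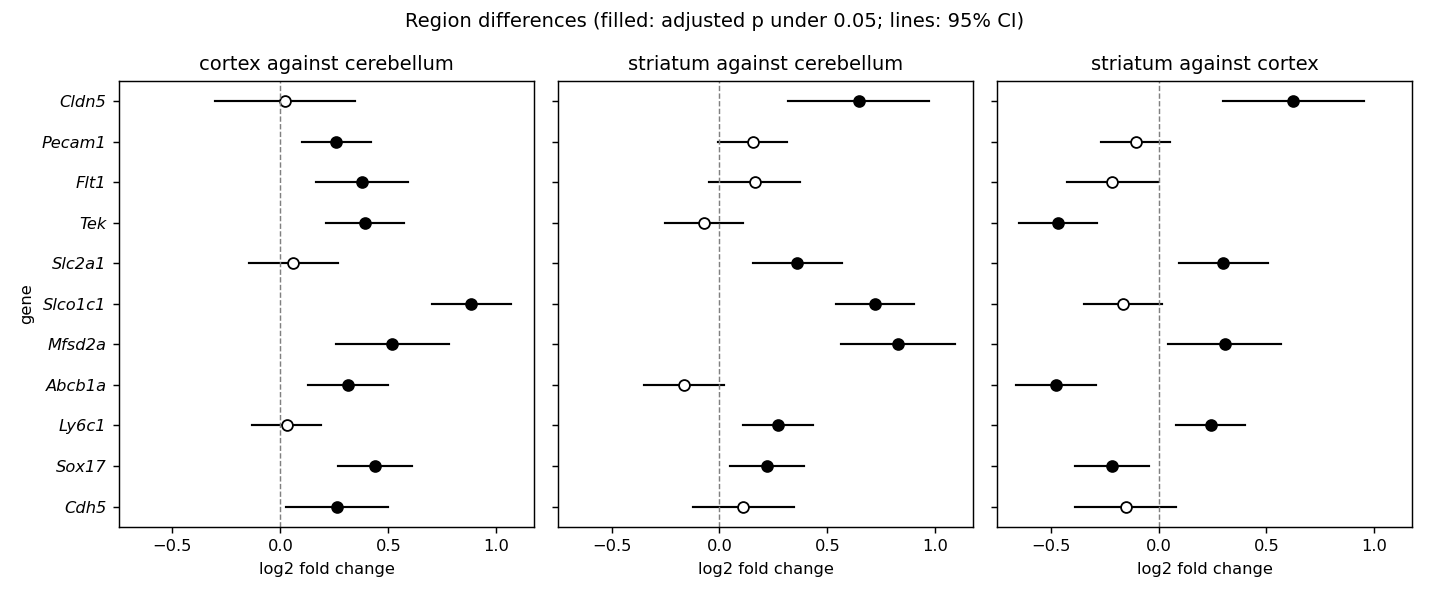
Log2 fold change between regions (horizontal axis) of the 10 endothelial genes and Cdh5 (vertical axis), with lines for the 95% CI and filled points for adjusted p under 0.05, from 54 libraries of 18 mice. Slco1c1 and Mfsd2a lie to the right in cortex and striatum against cerebellum, while Cldn5 is on the higher and Abcb1a and Tek are on the lower side in striatum against cortex.

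A second comparison set each gene against Cdh5 of the same library, a ratio in which the depth and the scaling of the library largely cancel. Cdh5 itself differed from cerebellum by 0.26 ± 0.117 in cortex (adjusted p = 0.0425) and by 0.11 ± 0.117 in striatum (adjusted p = 0.394). The ratios were compared within mice by exact two-sided sign-flip permutation tests, with 30 tests in the family. Relative to Cdh5, Slco1c1 was higher than in cerebellum by 0.67 ± 0.123 in cortex (log2, mean ± SE of 18 mice, exact p = 0.000114, adjusted p = 0.000572) and by 0.62 ± 0.118 in striatum (exact p = 9.16e-05, adjusted p = 0.000572). Mfsd2a was higher by 0.78 ± 0.136 in striatum than in cerebellum, in 17 of 18 mice (exact p = 9.16e-05, adjusted p = 0.000572). Cldn5 was higher in striatum by 0.74 ± 0.143 against cortex (15 of 18 mice, exact p = 7.63e-05, adjusted p = 0.000572) and by 0.55 ± 0.162 against cerebellum (14 of 18, exact p = 0.00433, adjusted p = 0.0130). Against cerebellum the call of Cldn5 was lost without the Hox libraries (0.41, adjusted permutation p = 0.0808), without the libraries with high Ttr (0.34, adjusted permutation p = 0.200) and without the libraries against their region label (0.41, adjusted permutation p = 0.0895). Abcb1a was lower relative to Cdh5 in striatum by −0.33 ± 0.075 against cortex and −0.28 ± 0.053 against cerebellum, and Tek by −0.32 ± 0.077 and −0.19 ± 0.069. Slc2a1 went both ways relative to Cdh5. It was lower in cortex than in cerebellum by −0.20 ± 0.070 (adjusted permutation p = 0.0274). In striatum it was higher by 0.24 ± 0.081 against cerebellum (adjusted permutation p = 0.0250) and by 0.44 ± 0.079 against cortex (exact p = 6.87e-05, adjusted p = 0.000572). Pecam1 gave the smallest differences relative to Cdh5, −0.0074 ± 0.053, 0.026 ± 0.064 and 0.033 ± 0.069 in the 3 comparisons, none of which passed the test. Against the mean of 15 general endothelial genes, however, Pecam1 was lower by −0.10, −0.23 and −0.13 and passed in all 3 (adjusted permutation p = 0.0482, 0.000305 and 0.0191). In all, 5 of 10 ratios passed in cortex against cerebellum, 6 in striatum against cerebellum and 6 in striatum against cortex. Against that mean in place of Cdh5 these counts were 5, 9 and 10, and in the 8 WT mice alone they were 0, 0 and 0, where the smallest adjusted p was 0.0781. Without the libraries with high Ttr they were 0, 2 and 5, where Slco1c1 in cortex against cerebellum was at 0.75 (adjusted permutation p = 0.0521), Mfsd2a in striatum against cerebellum at 0.61 (adjusted permutation p = 0.0586), and Slco1c1 and Abcb1a alone passed in the latter. Without the 8 libraries against their region label they were 2, 3 and 5. Without the Hox libraries they were 3, 4 and 6, and Slc2a1 lost both calls against cerebellum. A mouse stays in a paired ratio only if both of its libraries remain, and the 7 cerebellum and 4 cortex libraries with high Ttr came from different mice. Fewer mice then limit the exact p, as in WT mice alone.

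Libraries split by the choroid plexus gene Ttr did not overlap for 2 of the genes, each in 1 region. In cerebellum the 7 libraries with over 500 CPM of Ttr, 4 from litter 1 and 3 from litter 3, were the 7 lowest for Cldn5, at 10.9 to 21.2 CPM against 22.4 to 39.6 CPM in the other 11. In striatum the 4 libraries with over 500 CPM of Ttr were the 4 highest for Slco1c1, at 84.8 to 104.1 CPM against 57.9 to 83.6 CPM in the other 14. Of these 4, 3 were from litter 1 and 1 from litter 3. Slco1c1 is also made by choroid plexus epithelium, and the part of this tissue in the levels of Cldn5 and Slco1c1 was not tested. The share of genes tested whose groups did not overlap in these splits, which were made after the data were seen, was 0.723% in cerebellum and 0.786% in striatum. Cdh5 overlapped in both, at 6.79 to 13.1 against 5.98 to 14.8 CPM in cerebellum and 8.41 to 11.7 against 6.83 to 14.0 CPM in striatum. Slco1c1 overlapped in cerebellum (44.3 to 64.9 against 32.7 to 68.7 CPM) and Cldn5 in striatum (17.9 to 42.8 against 25.6 to 57.6 CPM). Their medians still differed, at 49.6 against 35.0 CPM for Slco1c1 in cerebellum and 25.2 against 36.3 CPM for Cldn5 in striatum. The cerebellum libraries without high Ttr included the Hox libraries of mice M754 and M755, at 68.7 and 59.5 CPM of Slco1c1. In cortex, with 4 libraries against 14, every member overlapped, and Cldn5 had a median of 24.0 CPM with high Ttr against 22.3 CPM. The 7 choroid plexus genes summed to between 16.3 and 2530 CPM in cerebellum, and to between 14.1 and 6036 CPM in striatum, and none of them was at 0 in all libraries of a group. Without the libraries with high Ttr Cldn5 remained higher in striatum, by 0.47 ± 0.154 against cerebellum (adjusted p = 0.00696) and by 0.72 ± 0.144 against cortex (adjusted p = 8.26e-05), and Slco1c1 remained higher in cortex than in cerebellum, by 1.00 ± 0.106 (adjusted p = 1.99e-10). Cldn5 in cortex against cerebellum then turned from 0.022 to −0.24 (adjusted p = 0.160), and its call relative to Cdh5 in striatum against cerebellum was lost, as given above.

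**Figure D3:**
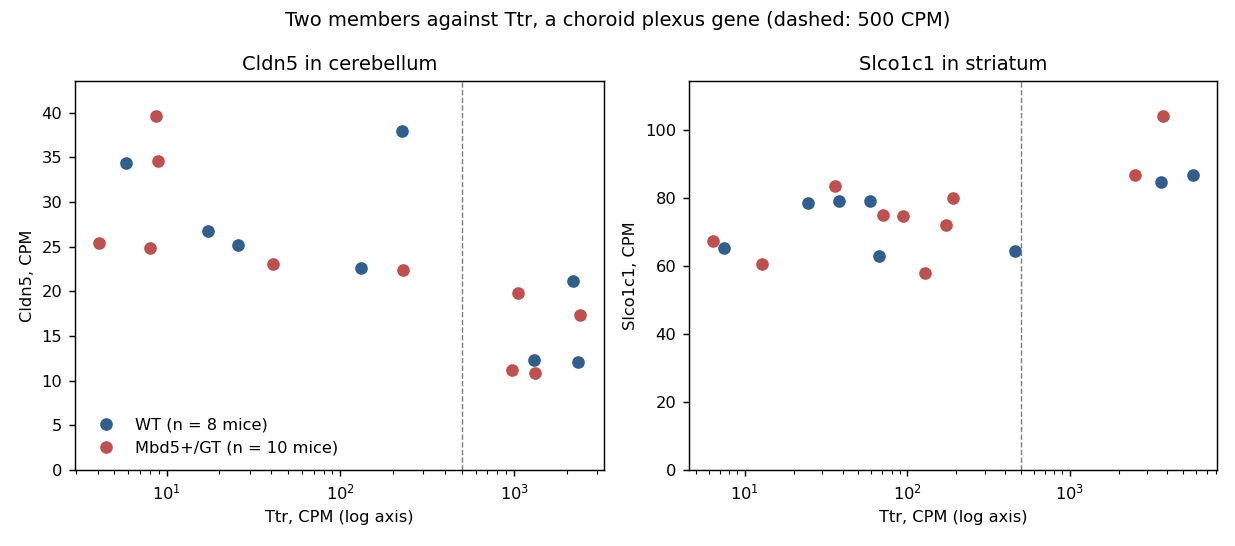
Cldn5 in cerebellum (left) and Slco1c1 in striatum (right), in CPM on axes starting at 0, against Ttr in CPM on a log axis, with 1 point per mouse and a dashed line at 500 CPM. The 7 cerebellum libraries right of the line hold 10.9 to 21.2 CPM of Cldn5, below all others, and the 4 striatum libraries right of the line hold 84.8 to 104.1 CPM of Slco1c1, above all others.

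Hox counts moved with Mfsd2a and Slco1c1 in cerebellum. The 3 highest cerebellum libraries for Mfsd2a were Hox libraries, at 40.1 CPM in mouse M755, 33.8 CPM in mouse M754 and 20.4 CPM in mouse M761, while the fourth, mouse M756, held 15.1 CPM and the 14 other libraries 9.34 to 19.6 CPM. The same 3 were the highest for Slco1c1, at 68.7 CPM in mouse M754, 64.9 CPM in mouse M761 and 59.5 CPM in mouse M755, while mouse M756 held 49.6 CPM and the others 32.7 to 58.2 CPM. Without the 4 libraries Slco1c1 was higher than in cerebellum by 1.04 ± 0.087 in cortex and 0.90 ± 0.087 in striatum. The Hox libraries also held the most oligodendrocyte RNA, with 6 oligodendrocyte genes summing to 30813 CPM in mouse M755, 18607 in mouse M754, 8908 in mouse M761 and 8539 in mouse M756, against 4038 to 7815 CPM in the others. Of the Hox libraries, those of mice M761 and M756 also held high Ttr, at 2328 and 1058 CPM. The next highest cerebellum libraries for Slco1c1 were those of mice M753 and M757, at 58.2 and 57.0 CPM. They held 2376 and 2189 CPM of Ttr and 0.44 and 0.34 CPM of summed Hox genes. The part of Hox-marked tissue, oligodendrocyte RNA or choroid plexus in the levels of Mfsd2a and Slco1c1 was not tested.

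The main question of the study was what the Mbd5 allele does to gene expression. None of the 10 endothelial genes changed between Mbd5+/GT and WT mice in any region at an adjusted p under 0.05, a threshold passed by 0.00551%, 0.0107% and 0.00539% of genes tested in cerebellum, cortex and striatum. At an unadjusted p under 0.05 the genes numbered 0 of 10 in cerebellum, 0 of 10 in cortex and 1 of 10 in striatum, against 2.75%, 8.46% and 7.44% of genes tested. DESeq2 called none of the 10 either. In cerebellum all 10 estimates were below 0, from −0.21 for Cldn5 to −0.055 for Mfsd2a, with a median of −0.11, while 52.7% of all genes tested were below 0 and their median was −0.0035. In cortex 9 of 10 were below 0 (median −0.10, against 52.2% and −0.0042 over all genes), from −0.19 for Abcb1a to 0.047 for Slco1c1. In striatum 8 of 10 were below 0 (median −0.074, against 53.4% and −0.0099 over all genes). Genes of 1 cell type move together between libraries, so these counts are not 10 independent observations. The 95% CIs of the 10 genes reached from −0.47 to 0.19 in cerebellum, from −0.43 to 0.18 in cortex and from −0.35 to 0.32 in striatum.

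Mfsd2a in striatum was the exception at the unadjusted level. It ranged from 20.8 over a median of 28.2 to 32.9 CPM in 10 Mbd5+/GT mice and from 26.8 over 30.7 to 38.0 CPM in 8 WT mice, and the groups overlapped, with 9 of 10 Mbd5+/GT mice below the WT mean. The log2 difference was −0.19 ± 0.076 (p = 0.0232 and adjusted p = 0.630 in the edgeR fit). An exact two-sided permutation test over all 43758 splits gave −0.22 with p = 0.0323, and over the 3500 splits within litters p = 0.0423, the lowest of 30 such tests and 1 of 30 under 0.05. The differences within litters 1, 2 and 3 were −0.33, −0.038 and −0.36. In cerebellum and cortex Mfsd2a differed by −0.055 ± 0.101 and −0.16 ± 0.079.

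Cldn5 in striatum was at 17.9, 33.7 and 49.6 CPM (lowest, median and highest) in Mbd5+/GT and 27.7, 38.4 and 57.6 CPM in WT mice. The difference was −0.27 without a model (exact permutation p = 0.215) and −0.085 ± 0.066 with surrogate variables (adjusted p = 0.822), and within litters it was −0.73, 0.41 and −0.42, so that litter 2, which holds 1 WT mouse, went the other way. Flt1 gave −0.12 ± 0.145, −0.091 ± 0.122 and −0.011 ± 0.098 in cerebellum, cortex and striatum, and Tek −0.089 ± 0.096, −0.10 ± 0.123 and 0.0091 ± 0.074. Beside these values, the 7 choroid plexus genes differed between genotypes without passing the test after adjustment in any region. All 7 estimates were above 0 in cortex (median log2 difference 1.43, 6 of 7 at an unadjusted p under 0.05) and below 0 in striatum (median −1.29) and cerebellum (median −0.27), with none at an unadjusted p under 0.05 in these 2 regions. The genes had sums of 8.67 to 1292 CPM in Mbd5+/GT and 21.5 to 240.4 CPM in WT cortex. The 4 cortex libraries with high Ttr were all Mbd5+/GT. The part of this in the genotype values was not tested. Without the libraries with high Ttr no member was called in any region, as with all libraries. The estimates of Slco1c1 in cortex (−0.011) and of Cldn5 (0.0082), Slco1c1 (0.0045), Sox17 (−0.21) and Tek (−0.045) in striatum then changed direction. No other member changed direction in this setting. The genotype effect was also compared between regions by interaction contrasts. No member passed, at an adjusted or an unadjusted p under 0.05, in cortex against cerebellum, striatum against cerebellum or striatum against cortex, where 1.11%, 2.68% and 4.22% of genes tested had an unadjusted p under 0.05 and none passed after adjustment (1 did in striatum against cortex with DESeq2). The unadjusted p of the members ran from 0.216 (Abcb1a, striatum against cortex) to 0.983.

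**Figure D4:**
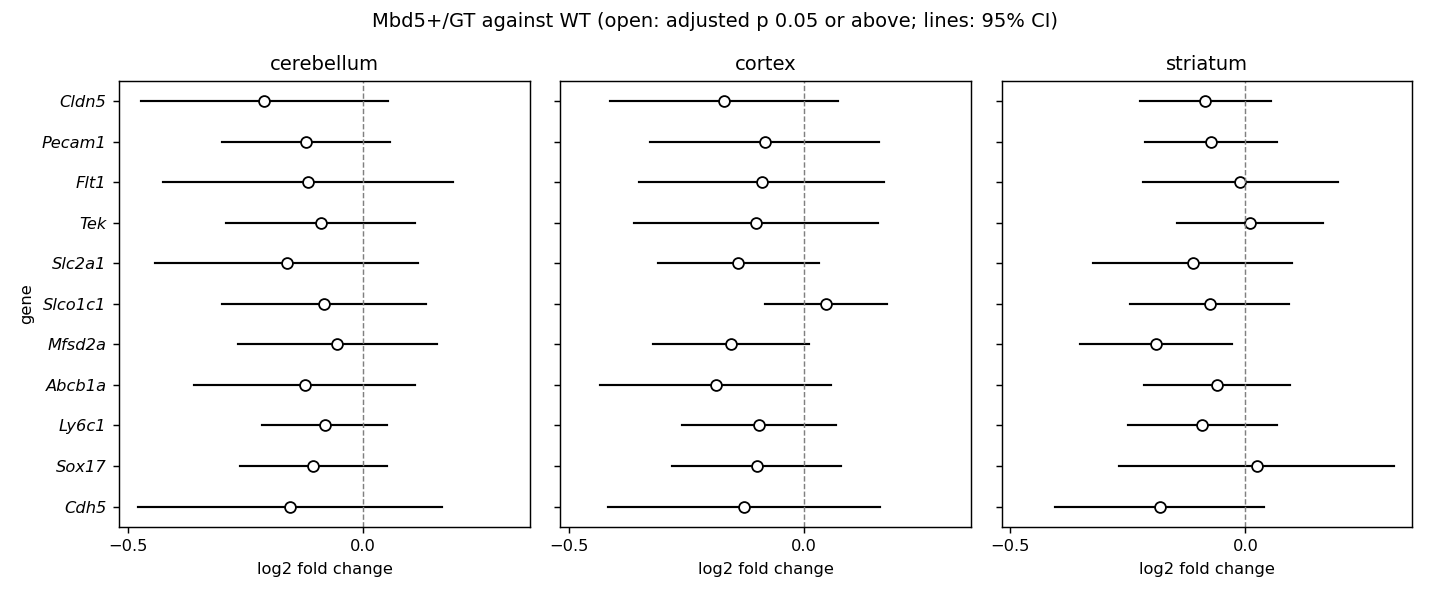
Log2 fold change of Mbd5+/GT against WT mice (horizontal axis) of the 10 endothelial genes and Cdh5 (vertical axis) in the 3 regions, with lines for the 95% CI and open points for an adjusted p of 0.05 or above. All points are open, and only the line of Mfsd2a in striatum (−0.35 to −0.029) misses 0.

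Correlations across the 18 mice of a region set each member against single genes of vessels and meninges. Pearson's r and Spearman's rho with Cdh5, with Pdgfrb of mural cells and with Dcn of meningeal fibroblasts were computed on log2 CPM, which made 90 relations with 100000 permutations each. Both genes of a relation come from the same library. Flt1 correlated with Cdh5 in every region, with r = 0.90 and rho = 0.91 in cerebellum, 0.95 and 0.95 in cortex and 0.72 and 0.83 in striatum (permutation test, the largest adjusted p being 0.00475 in striatum). Leaving out the 2 mice farthest from the median of Cdh5 gave r of 0.86, 0.95 and 0.71. Abcb1a gave r of 0.83, 0.78 and 0.71 with Cdh5, rho of 0.80, 0.74 and 0.73 (largest adjusted permutation p 0.00441), and r of 0.75, 0.73 and 0.73 without the 2 mice. Tek gave r of 0.79, 0.84 and 0.60, rho of 0.76, 0.82 and 0.60 (largest adjusted permutation p 0.0334, in striatum), and r of 0.69, 0.84 and 0.52 without the 2 mice. These 3 genes passed for r and rho in all 3 regions. Pecam1 (r of 0.80 and 0.87, rho of 0.77 and 0.83, largest adjusted permutation p 0.00276) and Slc2a1 (r of 0.75 and 0.70, rho of 0.73 and 0.78, largest adjusted permutation p 0.00562) passed in cerebellum and cortex, where r without the 2 mice was 0.71 and 0.86 for Pecam1 and 0.69 and 0.70 for Slc2a1. In striatum they gave r of 0.38 (permutation p = 0.122, adjusted p = 0.281) and 0.12 (permutation p = 0.642, adjusted p = 0.803). Cldn5 passed in cortex alone (r = 0.63, rho = 0.72, adjusted permutation p = 0.0186 and 0.00490, r without the 2 mice 0.69), with r of 0.21 in cerebellum and −0.30 in striatum. Whether these correlations differ between regions was not tested.

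Ly6c1, Slco1c1 and Sox17 passed with Cdh5 in no region. Ly6c1 gave r of −0.16, 0.16 and −0.013 with Cdh5 in cerebellum, cortex and striatum, and Slco1c1 0.39, 0.19 and 0.23, each at an adjusted permutation p of 0.259 or more. Sox17 gave r of 0.24, 0.48 and 0.46, with a smallest adjusted permutation p of 0.126 for r and 0.114 for rho. Mfsd2a gave 0.51, 0.50 and −0.10, and passed in cortex for rho alone (0.61, adjusted permutation p = 0.0334). With Pdgfrb, 5 members passed in cerebellum and 6 in cortex, those that passed with Cdh5, but 0 in striatum, where r ran from −0.35 to 0.29. With Dcn none passed for both measures in any region, the nearest being Slco1c1 in cortex (r = 0.56 and rho = 0.59, adjusted permutation p = 0.0522 and 0.0400). With litter means removed the same number of members passed by r with Cdh5 in cerebellum and striatum, 5 and 3, and 7 in place of 6 in cortex, where Mfsd2a joined (r = 0.63). Without the 4 Hox libraries Flt1, Abcb1a, Pecam1, Tek and Slc2a1 gave r of 0.88, 0.76, 0.76, 0.69 and 0.66 with Cdh5 in cerebellum.

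**Figure D5:**
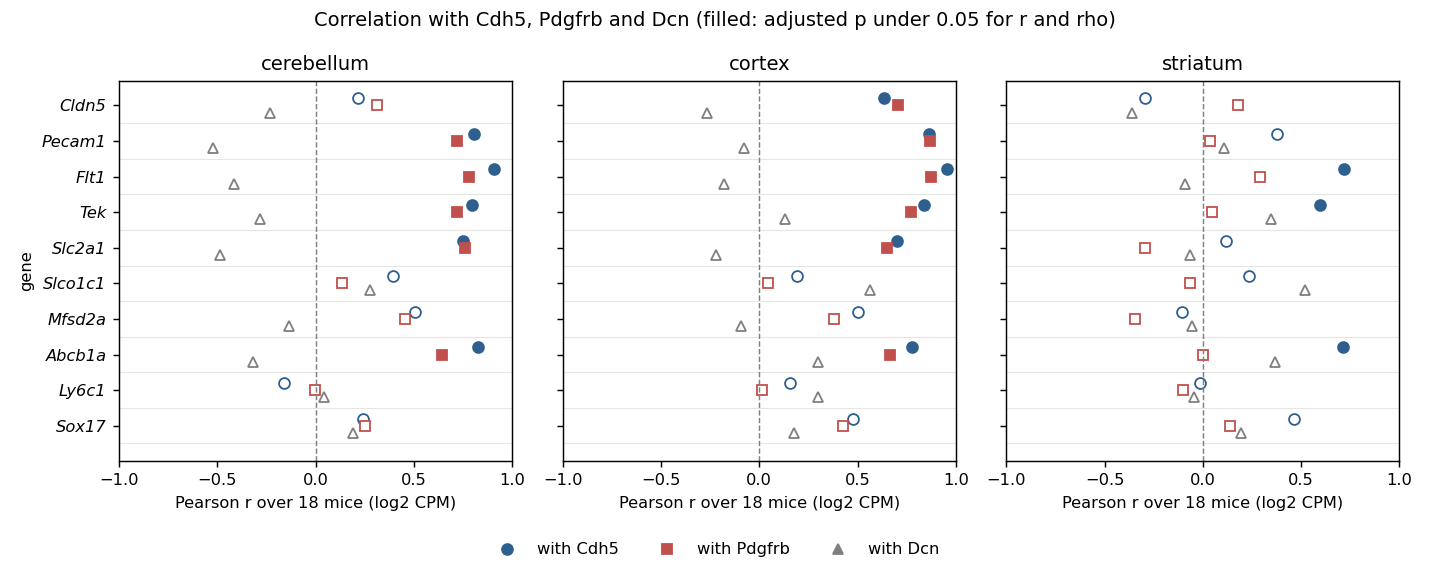
Pearson's r over 18 mice (horizontal axis, −1 to 1) of each endothelial gene (vertical axis) with Cdh5 (blue circles), Pdgfrb (red squares) and Dcn (grey triangles) in the 3 regions, filled where r and rho both had an adjusted permutation p under 0.05. Flt1, Tek and Abcb1a are filled for Cdh5 in all 3 panels, and no square is filled in striatum.

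The promoters of Flt1 and Tek, whose correlation with Cdh5 passed in every region, and of Slco1c1 and Cldn5, whose levels differed between regions as described above, are shown side by side. RefSeq promoter windows (GRCm38.p6) were given for 8 of the 10 genes, and none for Pecam1 and Sox17. Each line holds the 250 bases before the start site, 5′ to 3′ on the gene's strand. Flt1 lies at chr5:147726012-147726261 on the minus strand, Tek at chr4:94739039-94739288 on the plus strand, Slco1c1 at chr6:141524104-141524353 on the plus strand and Cldn5 at chr16:18776597-18776846 on the plus strand. Capitals mark matches, on either strand, to 5 short motifs. The core bound by ETS factors was searched as AGGAAG. SOX factors were searched as AACAAT, and TCF/LEF factors, which act with beta-catenin, as CTTTGA. The GC box was searched as GGGCGG, and the TATA box as TATAAA.
Flt1: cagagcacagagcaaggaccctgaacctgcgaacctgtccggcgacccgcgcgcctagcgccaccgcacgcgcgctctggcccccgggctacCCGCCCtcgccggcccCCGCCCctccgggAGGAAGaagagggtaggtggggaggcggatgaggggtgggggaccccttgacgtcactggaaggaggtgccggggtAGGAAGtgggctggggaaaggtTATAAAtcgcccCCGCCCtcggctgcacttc
Tek: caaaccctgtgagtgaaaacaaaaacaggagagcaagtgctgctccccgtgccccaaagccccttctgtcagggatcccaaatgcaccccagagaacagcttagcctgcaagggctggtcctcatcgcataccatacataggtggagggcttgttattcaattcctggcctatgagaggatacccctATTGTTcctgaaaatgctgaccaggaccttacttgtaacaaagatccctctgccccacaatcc
Slco1c1: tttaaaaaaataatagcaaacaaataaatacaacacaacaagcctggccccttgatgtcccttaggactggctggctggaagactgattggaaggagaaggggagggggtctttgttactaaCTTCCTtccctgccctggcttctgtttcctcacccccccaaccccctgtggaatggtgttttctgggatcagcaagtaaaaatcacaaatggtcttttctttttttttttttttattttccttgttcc
Cldn5: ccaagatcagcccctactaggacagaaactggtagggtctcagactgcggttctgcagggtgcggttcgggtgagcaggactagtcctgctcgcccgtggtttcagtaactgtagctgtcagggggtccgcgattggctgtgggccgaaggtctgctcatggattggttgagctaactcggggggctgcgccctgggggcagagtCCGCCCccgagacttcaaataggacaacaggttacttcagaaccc
The Flt1 window is rich in G and C (70.4%, against a median of 52.4% over 32851 windows) and holds 2 ETS matches, 3 GC boxes and a TATA box, none overlapping. Tek holds 1 SOX match, Slco1c1 1 ETS match and Cldn5 1 GC box. Among the windows not printed, Slc2a1 holds 2 GC boxes and Mfsd2a 1 TCF/LEF match, while Ly6c1 has 2 windows, of which 1 holds a TATA box and the other 3 ETS matches, 2 of them overlapping each other. The window given for Abcb1a ends at position 8567090 of chromosome 5, well before the annotated start of the gene at 8660077, and is not described. GC content was 51.2% for Tek, 42.8% for Slco1c1 and 59.6% for Cldn5. Of all 32851 windows, 29.5% hold the ETS match, 9.42% the SOX, 13.8% the TCF/LEF, 32.7% the GC box and 12.4% the TATA box match. A match is a description of the letters and not a bound site.

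Other genes of the same pathways and cells were taken from lists, with the 3 genes of lowest p named in a comparison. In bulk tissue the cells that a list gene came from are not known, also for Nrp1, Slco2b1, Efnb2 and Cspg4, named below. Their counts stand beside the shares of all genes tested, which were 33.3% higher and 35.5% lower in cortex and 37.3% and 38% in striatum against cerebellum, and 28.9% and 30.1% in striatum against cortex. General endothelial genes were mostly higher in the forebrain regions, with 9 of 15 higher and 1 lower in cortex than in cerebellum, and 10 higher and 1 lower in striatum. Cd34, a sialomucin of vessels and progenitor cells, was higher by 2.02 in cortex and 1.14 in striatum (log2), Egfl7, a secreted vessel factor, by 0.65 and 0.91, and Podxl by 0.60 in cortex. Of 12 endothelial transcription factors, 9 were higher and 1 lower in cortex than in cerebellum, with Ets1 at 0.62, Fli1 at 0.57 and Epas1 at 0.52, and 7 were higher and 1 lower in striatum, with Sox18 at 0.88 and the flow-responsive Klf2 at 0.76. Striatum held less Ets1 (−0.44) and Fli1 (−0.32) and more Klf2 (0.44) than cortex. The medians of the list were 0.38 in cortex and 0.36 in striatum against cerebellum, beside −0.022 and 0.0020 over all genes.

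Among 10 genes of VEGF and angiopoietin signalling, the coreceptor Nrp1 was higher than in cerebellum by 1.46 in cortex and 1.22 in striatum, whereas Angpt1, the activating ligand of Tek, was lower by −1.28 and −1.99. Ptprb, the phosphatase that restrains Tek, was higher in cortex than in cerebellum by 0.62 and lower in striatum than in cortex by −0.63, the direction that Tek also took. In this list 3 genes were higher and 4 lower in cortex than in cerebellum, close to the shares of all genes, 2 higher and 4 lower in striatum than in cerebellum, and 2 higher and 5 lower in striatum than in cortex. Of 12 Wnt and norrin genes, 5 were higher and 4 lower in cortex and 4 higher and 5 lower in striatum than in cerebellum, counts close to the shares of all genes. The ligands, which neurons and glia make, led both comparisons, with Wnt7a at −2.51 and −2.16, Wnt7b at 1.75 and 1.64 and the norrin gene Ndp at −0.81 and −0.84. Between striatum and cortex 1 was higher and 6 were lower, among them the norrin receptor Fzd4 (adjusted p = 2.29e-05), the Wnt7 coreceptor Reck (−0.29) and Lrp6 (−0.38).

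Of 13 further barrier transport genes, 7 were higher and 4 lower in cortex than in cerebellum. Slco2b1 was higher by 1.06 and the pump Abcg2 by 0.43, while the monocarboxylate carrier Slc16a1 was lower by −0.45. In striatum 1 was higher and 7 were lower than in cortex, with the transferrin receptor Tfrc at −0.80, the amino acid carrier Slc7a1 at −0.55 and Abcg2 at −0.40. Of 9 tight junction genes 6 were lower in cortex than in cerebellum and 1 was higher, with Marveld2 at −3.62 and Cgnl1 at −1.72, genes that epithelial cells and neurons also express. Arterial genes were higher in cortex than in cerebellum in 4 of 7 and lower in 0, with Efnb2 at 1.26. Of 4 venous genes Vcam1 was higher by 1.00 and Ackr1 lower by −1.54. Of 2 genes of fenestrated capillaries, which lack the barrier, Plvap was lower by −1.27 in cortex and −0.78 in striatum. The other was estimated above 0 in both and did not pass.

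Lists of other cell types moved between the regions beside the members. Mural cell genes were higher in cortex than in cerebellum in 8 of 12 and lower in 0, with Cspg4 at 1.05, Acta2 at 0.91 and Pdgfrb at 0.45, and in striatum 6 were higher and 2 lower. All 6 microglia genes were higher in both (median 1.75 in cortex and 2.01 in striatum), and their sums were 53.0 to 188.9 CPM in cerebellum, 193.8 to 313.3 CPM in cortex and 207.9 to 368.8 CPM in striatum. Meningeal fibroblast genes were lower in striatum than in cerebellum in 7 of 8 (median −1.03, Dcn at −1.74). All 6 oligodendrocyte genes were higher in striatum than in cortex (median 1.18), 3 of 7 choroid plexus genes were lower in cortex than in cerebellum, and 5 of 5 erythrocyte genes were lower (median −0.62). Astrocyte genes went both ways, with 1 of 6 higher and 4 lower in cortex and 2 higher and 3 lower in striatum than in cerebellum, and of 5 oligodendrocyte precursor genes 3 and 5 were higher (median 1.27 in cortex and 1.16 in striatum). No gene on these lists was at 0 in all libraries of a group. Their part in the region differences was not tested.

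The genes whose levels ran most like the mean of the 10 across mice were found over 17221 genes by the lowest of 3 regional Pearson correlations of the deviations from the genotype means, as a description with 18 mice per region. They were Tie1 (lowest r 0.75), Esam (0.73), Tgm2 (0.73), Cavin1 (0.72), Eng (0.71), Gata2 (0.71), Myh11 (0.68), Sema3g (0.68), Tns2 (0.64) and Hspb1 (0.64). Tie1, Esam and Eng are general endothelial genes, Sema3g is an arterial and Myh11 a smooth muscle gene of the lists. Among the members themselves, each of which is part of the mean, Pecam1 ran closest to it (0.82, 0.95 and 0.88 in cerebellum, cortex and striatum) and Slco1c1 least (0.46, 0.24 and −0.24). In striatum Ly6c1 (0.81) and Slc2a1 (0.78), whose r with Cdh5 did not pass there, ran close to the mean, whereas Tek, whose r with Cdh5 passed, was at 0.19.

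Counting could have mixed a few of the genes with others. In windows of 50 bases, 21.5% of the Ly6c1 transcript sequence also occurs in Ly6c2 and 16.3% of that of Abcb1a in Abcb1b, so their levels are uncertain where reads were dropped or split. Exons of Sox17, Abcb1a and Slc2a1 overlap those of genes on the opposite strand (Gm37587, Gm42686 and Gm12868) over 16.8%, 10.1% and 2.995% of their exon bases, and without strand the reads of such pairs cannot be told apart.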

How the data were processed

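PolyA RNA of 54 mouse brain libraries was sequenced. The authors aligned reads to GRCm38 with STAR 2.4.2 and Ensembl gene models and deposited whole-number counts per gene, with 92 spike-ins that were left out here. Which strand column was taken is not given in the sources used here. The members and lists were chosen with earlier results of these data known. All members, Mbd5, Cdh5, Pdgfrb and Dcn, the 3 genes of lowest p per list and the 10 genes most like the members were named, apart from 1 list gene that is not reported here. Annotation names matched 46574 identifiers.

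Genotype was tested in each region with edgeR 4.0.16 (R 4.3.3, quasi-likelihood, trimmed-mean scaling, more than 4 counts in at least 8 libraries) with 2, 4 and 4 surrogate variables for cerebellum, cortex and striatum (sva 3.50.0), and region and interaction in 1 fit over 54 libraries, with Benjamini-Hochberg adjustment over all genes tested. Log2 CPM used a prior count of 2. Permutation tests used scipy 1.17.1, and DESeq2 1.42.0 was an alternative. The scripts were tested on simulated data. The 3 sets of libraries left out (summed Hox over 10 CPM, Ttr over 500 CPM, markers against the label) were chosen after seeing the data. The same mouse gave all 3 regions, and deviations of same-mouse libraries correlated with a median r of 0.16, 0.062 and 0.091 in the 3 pairs of regions. Mice are separate animals, and the 219 pairs of replicate libraries all differed beyond sampling noise. Of the WT striatum libraries, 2 are labelled as repeated.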

Additional observations from a re-analysis of the deposited data

Results flagged for a closer look

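Of 60 combinations of a member, a region and a genotype, 2 held a sample far from the others of its group, where chance gives about 1 in 20. Mfsd2a in Mbd5+/GT cerebellum was at 40.1 CPM in mouse M755, with the next of the 10 libraries at 19.6 CPM. This is the library with 582.6 CPM of summed Hox genes and 1.76 CPM of Gabra6, and the part of that in its Mfsd2a level was not tested. Sox17 in Mbd5+/GT cortex was at 10.6 CPM in mouse M763, with the next of the 10 libraries at 7.03 CPM.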

How the results depend on the processing

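No member was called for genotype, or for a difference of the genotype effect between regions, under any alternative run. With the mouse as replicate block, 7, 6 and 7 members passed in cortex against cerebellum, striatum against cerebellum and striatum against cortex, as without it, and the block changed no other call of a member. Members called fell to 4 in cortex against cerebellum in WT mice alone, and to 4 in striatum against cortex without litter 2 and without the libraries with high Ttr. Relative to Cdh5 the counts in cortex against cerebellum and striatum against cerebellum were 0 and 2 without high Ttr and 2 and 3 without the libraries against their region label, 3 in the first without the Hox libraries, and 0 in all 3 comparisons in WT mice, where fewer mice limit the exact p, while against the general endothelial list 10 passed in striatum against cortex. Leaving out libraries also left fewer mice in these paired tests. Genes called for genotype in cerebellum, 1 in all, were 0 without litter 2, without high Ttr, with litter and sex as covariates and with no surrogate variables, 2 with no filter and with the strict filter of 10 counts in every library, and 3 with DESeq2. In cortex the 2 genes called became 0 without surrogate variables and with litter and sex, 1 without high Ttr and without the libraries against their label, 7 with no filter and 63 with DESeq2. In striatum the 1 gene became 0 without surrogate variables, with litter and sex and without litter 2, and 3 with DESeq2. The interaction of striatum against cortex gave 1 gene with DESeq2, and with litter means removed 1 member passed by r with Dcn in cortex. The cause of these changes was not tested.

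Direction changed in 54 values, 33 of them genotype effects of members that no fit called. In cerebellum these were Slco1c1 (0.014) and Mfsd2a (0.044) without the Hox libraries and Mfsd2a (0.0034) without the libraries against their label. In cortex they were Cldn5 (0.0057), Flt1 (0.091), Pecam1 (0.048) and Tek (0.041) with litter and sex, Flt1 (0.063) and Pecam1 (0.045) with the strict filter, Flt1 (0.033), Pecam1 (0.031), Slco1c1 (−0.011) and Tek (0.012) without litter 2, Slco1c1 (−0.011) without high Ttr, and Flt1 (0.028), Pecam1 (0.084) and Tek (0.022) without the libraries against their label. In striatum they were Flt1 (0.030), Slco1c1 (0.0017) and Abcb1a (0.059) without surrogate variables, Flt1 (0.0069), Slco1c1 (0.057) and Abcb1a (0.052) with litter and sex, Cldn5 (0.0089) and Tek (−0.014) with the strict filter, Sox17 (−0.10) without litter 2, Cldn5 (0.0082), Slco1c1 (0.0045), Sox17 (−0.21) and Tek (−0.045) without high Ttr, Flt1 (0.0017) and Sox17 (−0.046) without the libraries against their label, and Tek (−0.023) without the repeated libraries. Between regions, Cldn5 and Ly6c1 in cortex against cerebellum turned to −0.018 and −0.015 with no filter and to −0.24 and −0.036 without high Ttr, and Tek in striatum against cerebellum to 0.023 without the Hox libraries and 0.030 with upper quartile scaling. Relative to Cdh5, Abcb1a in cortex against cerebellum turned to −0.044 against the general endothelial list and −0.0029 without the libraries against their label, and Pecam1 to 0.0067 in WT mice. In striatum against cerebellum Flt1 (−0.20), Pecam1 (−0.23), Slc2a1 (−0.021), Ly6c1 (−0.13) and Sox17 (−0.19) turned against the list, Pecam1 to −0.029 without the Hox libraries, −0.029 without the libraries against their label and −0.035 without high Ttr, and Ly6c1 to −0.0086 without high Ttr. In striatum against cortex Pecam1 turned to −0.13 against the list and Sox17 to 0.049 without high Ttr. The correlation of Slco1c1 with Cdh5 in cortex turned to −0.075 with litter means removed. Every member held at least 109 counts in every library, and libraries held 25295973 counts or more.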

Other observations

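Vessel genes outside the 10 members had some low unadjusted p-values for genotype. In cortex 3 of 7 arterial genes were lower in Mbd5+/GT mice at an unadjusted p under 0.05, namely the ephrin ligand Efnb2 (−0.30 ± 0.085, p = 0.00293, adjusted p = 0.349), the Notch target Hey1 (−0.14 ± 0.044, adjusted p = 0.406) and the connexin gene Gja5 (−0.49 ± 0.218, adjusted p = 0.550). In cerebellum Efnb2 gave −0.15 ± 0.059 (adjusted p = 1.00). In striatum 3 of 12 mural cell genes were lower at an unadjusted p under 0.05, Vtn (−0.21 ± 0.072, adjusted p = 0.629), Higd1b (−0.24 ± 0.105, adjusted p = 0.642) and Anpep (−0.32 ± 0.143, adjusted p = 0.644). Over all genes tested, 841 of 18661 in cortex and 594 of 18546 in striatum were lower at an unadjusted p under 0.05. Counting both directions, the shares were 8.46% and 7.44%. In cortex 0 of 15 general endothelial, 0 of 12 endothelial transcription factor, 0 of 10 VEGF and angiopoietin and 0 of 12 mural cell genes reached an unadjusted p under 0.05. Of 9 tight junction genes 1 was lower and 1 higher there, and 1 of 2 fenestrated endothelial genes was higher. In striatum 1 of 9 tight junction genes was higher at that p. The estimates of 2 of 7 arterial genes were above 0 in cortex, and in striatum 0 of 7 arterial genes reached that p. None of the named genes passed the edgeR test after adjustment.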
